A study of Mus musculus with 2 samples.

Results

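The set is 10 genes of cardiac calcium cycling, Ryr2, Casq2, Jph2, Atp2a2, Pln, Sln, Cacna1c, Slc8a1, Camk2d and Rcan1. They were taken by gene symbol from the 32589 gene identifiers of 2 single-cell libraries of mouse heart, and all 10 were present in both. The tissue was left ventricle thickened by transverse aortic constriction (TAC), in which the aorta is tied narrower so that the ventricle works against raised pressure, and it was collected 6 weeks after that operation. The p53KO_TAC library came from mice labelled as p53 knockout and the WT_TAC library from mice labelled as wild type. The protein p53 is a transcription factor encoded by Trp53. Each library is 1 mixture of 3 hearts, so each group has 1 library, the spread between animals cannot be measured, and no test between the groups was possible. Both groups had the operation, and no group without it was analysed here. The sources used here do not give how the knockout was made, in which cells it acts, or the strain, age and sex of the mice. The study asked how p53 bears on cardiac hypertrophy.

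With each heartbeat, calcium entering through L-type channels of the cell membrane opens ryanodine receptors of the sarcoplasmic reticulum, the intracellular calcium store, and the released calcium drives contraction. For relaxation, a pump returns calcium to the store and the sodium-calcium exchanger removes the rest from the cell. In this system Ryr2 encodes the release channel, Casq2 the calcium buffer inside the store and Jph2 the protein that holds store and cell membrane together. Atp2a2 encodes the pump SERCA2, and Pln and Sln encode its small inhibitors phospholamban and sarcolipin. In the mouse heart sarcolipin is mainly atrial. Cacna1c encodes the pore of the L-type channel and Slc8a1 the exchanger. Camk2d encodes a calcium-activated kinase that acts on several of these proteins, and Rcan1 a regulator of the phosphatase calcineurin. Failing hearts are known for slowed calcium uptake into the store and for changed levels of SERCA2 and of the exchanger.

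The p53KO_TAC library held 10118 barcodes with 20918824 unique molecular identifiers (UMIs, each a counted RNA molecule), and the WT_TAC library held 16060 barcodes with 18897913 UMIs. After filters 9298 cells of p53KO_TAC, with a median of 1567 UMIs, and 14764 cells of WT_TAC, with a median of 937, were kept. Over all kept cells Trp53 had 55.0 UMIs per 1000000 nuclear-encoded UMIs (CPM) in p53KO_TAC and 38.7 CPM in WT_TAC. The deleted exons are not known here, so this level cannot check the knockout, and each direction below is one between the libraries labelled p53KO_TAC and WT_TAC. Xist had 929 CPM in p53KO_TAC and 2.37 CPM in WT_TAC, and 4 Y-linked genes summed to 7.34 CPM in p53KO_TAC and 541 CPM in WT_TAC, so sex and genotype cannot be told apart in these mice. The labels name cardiomyocytes, while the counts hold many classes of cell. Cells were clustered without the 10 genes and without related calcium genes, and clusters were called X-like from marker genes. Cardiomyocyte-like cells numbered 877 of 9298 (9.43%) in p53KO_TAC and 4894 of 14764 (33.1%) in WT_TAC. All 12 cardiomyocyte markers were detected in both, at a summed 52349 CPM in p53KO_TAC and 52572 CPM in WT_TAC. The libraries shared 105 barcodes, among them those of 12 cardiomyocyte-like cells of p53KO_TAC and 29 of WT_TAC.

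Most UMIs of the contractile calcium genes lay in cardiomyocyte-like cells. This class held 12.3% of all nuclear-encoded UMIs in p53KO_TAC and 38.05% in WT_TAC. Of Ryr2 UMIs it held 89.4% in p53KO_TAC and 85.7% in WT_TAC, and of Pln UMIs 71.4% in p53KO_TAC and 80.2% in WT_TAC. Casq2, Cacna1c, Jph2, Slc8a1 and Atp2a2 had between 60.6% and 74.9% of their UMIs there in p53KO_TAC and between 71.6% and 81.2% in WT_TAC. Camk2d and Rcan1 were spread more widely. The class held 23.0% of Camk2d UMIs in p53KO_TAC and 55.9% in WT_TAC, and 22.6% of Rcan1 UMIs in p53KO_TAC and 47.4% in WT_TAC. Since the class makes up such different shares of the libraries, the comparison was made within it.

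Within cardiomyocyte-like cells, 8 of the 10 genes stood higher in the p53KO_TAC library, and Atp2a2 and Pln, the other 2, stood lower. Of the 13727 genes with at least 20 UMIs over both libraries, 4616 stood higher and 9111 lower. Atp2a2 and Camk2d lay so near 0 that with every cell weighted equally their log2 ratios changed sign, to 0.026 for Atp2a2 and -0.073 for Camk2d. Sln and Slc8a1 were at least 2-fold higher, and none of the 10 was at least 2-fold lower. Of the 8462 genes with at least 100 UMIs in 1 library, 2.41% were at least 2-fold higher and 10% at least 2-fold lower. The median log2 ratio of p53KO_TAC over WT_TAC was 0.58 for the 10 genes and -0.25 for all 13727 genes with at least 20 UMIs over both libraries. Set among the first 8462 genes, the ratio of Slc8a1 lay above 98.2% of them, that of Casq2 above 97.0%, that of Jph2 above 95.9% and that of Pln above 26.6%. The intervals given with all these values are exact, at 95%, and cover counting error only. Fewer cells of a kind and less RNA of a gene per cell are not separated in such sums.

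**Figure D1:**
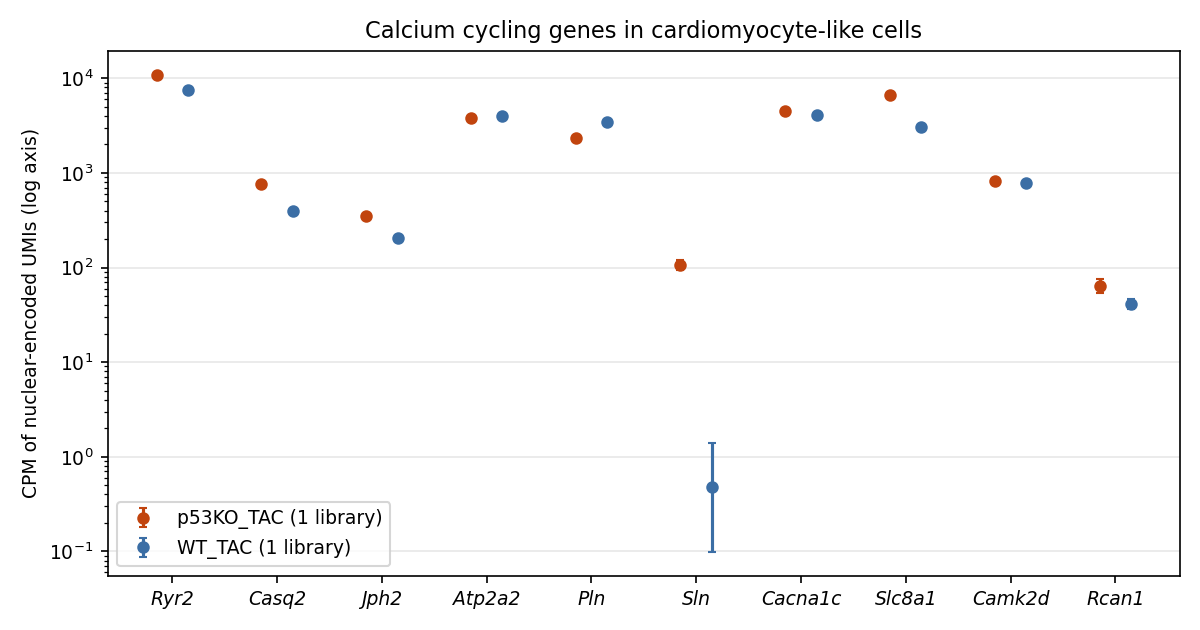
Level of each gene in cardiomyocyte-like cells, in CPM of nuclear-encoded UMIs on a log axis, with 1 point per library (p53KO_TAC orange, WT_TAC blue) and bars for the exact 95% Poisson interval, which covers counting error only. Sln was at 107 CPM in p53KO_TAC and 0.480 CPM in WT_TAC, and Pln and Atp2a2 are the genes whose p53KO_TAC point is the lower one.

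All 3 genes of the release machinery were higher in p53KO_TAC. Ryr2 (ENSMUSG00000021313, chromosome 13, 11553102 to 12106945, minus strand, mm10, as for all positions here) had 10808 (95% interval 10673 to 10944) CPM in the p53KO_TAC library and 7485 (95% interval 7417 to 7553) CPM in the WT_TAC library, a log2 ratio of 0.53 (interval 0.51 to 0.55). The RNA of the release channel thus stood 1.44 times as high. Casq2, the store's calcium buffer (ENSMUSG00000027861, chromosome 3, 102086415 to 102146514, plus strand), had 758 (95% interval 723 to 795) CPM in the p53KO_TAC library and 400.2 (95% interval 385 to 416) CPM in the WT_TAC library, a log2 ratio of 0.92 (interval 0.83 to 1.01). Jph2, which builds the junction between store and cell membrane (ENSMUSG00000017817, chromosome 2, 163336242 to 163397993, minus strand), had 347 (95% interval 323 to 372) CPM in the p53KO_TAC library and 204 (95% interval 193 to 216) CPM in the WT_TAC library, a log2 ratio of 0.77 (interval 0.64 to 0.89). For none of the 3 did the intervals of the libraries overlap. Since depth differed, each cell was also thinned to 500 UMIs, which left out 10 p53KO_TAC and 97 WT_TAC cells of the class. A Casq2 UMI was then found in 27.8% of p53KO_TAC and 15.6% of WT_TAC cells, and in 1.28% of p53KO_TAC and 0% of WT_TAC B-like cells, a class that should lack it; 0 of 79 cells allows a share of up to 3.80%, taken as 3 cells. A Jph2 UMI was found in 13.4% of p53KO_TAC and 9.57% of WT_TAC cells of the class and in 1.70% of p53KO_TAC and 2.53% of WT_TAC B-like cells. Before thinning, a Casq2 UMI was found in 58.4% of p53KO_TAC and 29.4% of WT_TAC cells and a Jph2 UMI in 38.4% of p53KO_TAC and 18.6% of WT_TAC cells. The shares of Casq2 and Jph2 had the same order as their levels. Those of Ryr2 did not, with a UMI in 76.9% of p53KO_TAC and 80.2% of WT_TAC cells thinned to 500 UMIs and in 87.1% of p53KO_TAC and 87.6% of WT_TAC cells before thinning, and in 11.9% of p53KO_TAC and 32.9% of WT_TAC B-like cells, so no order is read from them. Median depths were 1777 UMIs in p53KO_TAC and 1003 in WT_TAC for the cardiomyocyte-like cells thinned, and 1137 in p53KO_TAC and 972 in WT_TAC for the B-like cells.

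On the uptake side the pump differed little, its main ventricular inhibitor was lower and its atrial inhibitor was found almost solely in p53KO_TAC. Atp2a2 (ENSMUSG00000029467, chromosome 5, 122453513 to 122502225, minus strand) had 3802 (95% interval 3723 to 3883) CPM in the p53KO_TAC library and 4025 (95% interval 3975 to 4075) CPM in the WT_TAC library, a log2 ratio of -0.082 (interval -0.12 to -0.047). Pln (ENSMUSG00000038583, chromosome 10, 53337667 to 53345987, plus strand) had 2320.3 (95% interval 2258 to 2384) CPM in the p53KO_TAC library and 3422 (95% interval 3376 to 3468) CPM in the WT_TAC library, a log2 ratio of -0.56 (interval -0.60 to -0.52). Per 100 UMIs of the pump gene, those of phospholamban numbered 61.0 (95% interval 59.0 to 63.2) in the p53KO_TAC library and 85.0 (83.5 to 86.6) in the WT_TAC library. Sln (ENSMUSG00000042045, chromosome 9, 53850164 to 53854560, plus strand) had 244 UMIs in p53KO_TAC, or 107 (95% interval 94.2 to 122) CPM, and 3 UMIs in WT_TAC, or 0.480 (95% interval 0.0990 to 1.40) CPM. Its log2 ratio of 7.58 (interval 6.24 to 10.09) rests on those 3 UMIs. After thinning to 500 UMIs, an Sln UMI was found in 2.999% of p53KO_TAC and 0.0208% of WT_TAC cells of the class and in 0.426% of p53KO_TAC and 0% of WT_TAC B-like cells.

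Within the cardiomyocyte-like class, sarcolipin RNA came from a small group of cells. That class held 70.1% of the 348 Sln UMIs of p53KO_TAC, and 69 cells outside it held the other 104. Sln UMIs were found in 45 of the 877 cardiomyocyte-like cells of p53KO_TAC. The 5 cells with the most held 52.0% of the UMIs, with up to 49 in 1 cell. Cells with a UMI of Myl7, Bmp10 or Sbk2, genes typical of atrial muscle, numbered 58 of 877 in p53KO_TAC and 28 of 4894 in WT_TAC. In p53KO_TAC these cells held 224 of the 244 Sln UMIs (91.8%). Their Sln level was 1478 CPM, and that of the other cardiomyocyte-like cells of p53KO_TAC was 9.42 CPM. Without cluster 7, described below, the Sln log2 ratio was 3.98. Without the cells that held an atrial gene, Sln had 20 UMIs in p53KO_TAC and 1 UMI in WT_TAC. The summed level of 5 atrial genes (Myl7, Myl4, Bmp10, Sbk2 and Stard10) in cardiomyocyte-like cells was 751 CPM in p53KO_TAC and 17.4 CPM in WT_TAC, with none of the 5 at 0 in either library. How much atrial tissue each mixture held was not tested. The other 9 genes kept their direction without these cells, with log2 ratios of 0.87 for Casq2, 1.14 for Slc8a1 and -0.53 for Pln. Of those 9, Slc8a1 alone was at least 2-fold higher, beside 2.1% of all genes, and 0 were at least 2-fold lower, beside 10.1%.

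At the cell membrane, the exchanger differed by far more than the entry channel. Slc8a1 (ENSMUSG00000054640, chromosome 17, 81373105 to 81738377, minus strand) had 6587 (95% interval 6482 to 6694) CPM in the p53KO_TAC library and 3085 (95% interval 3042 to 3129) CPM in the WT_TAC library, a log2 ratio of 1.09 (interval 1.06 to 1.13), or 2.14-fold. Cacna1c (ENSMUSG00000051331, chromosome 6, 118587240 to 119196418, minus strand) had 4555 (95% interval 4468 to 4643) CPM in the p53KO_TAC library and 4081 (95% interval 4031 to 4132) CPM in the WT_TAC library, a log2 ratio of 0.16 (interval 0.13 to 0.19). The exchanger is known as the main route by which calcium leaves a ventricular muscle cell. Per 100 Atp2a2 UMIs, those of Slc8a1 numbered 173 (95% interval 169 to 178) in the p53KO_TAC library and 76.7 (75.2 to 78.1) in the WT_TAC library. After thinning to 500 UMIs, an Slc8a1 UMI was found in 68.3% of p53KO_TAC and 58.2% of WT_TAC cells of the class and in 11.9% of p53KO_TAC and 19.0% of WT_TAC B-like cells. Before thinning it was found in 78.0% of p53KO_TAC and 72.0% of WT_TAC cells. The order of these shares is not firm, since the log2 ratio of the shares was -0.10 after thinning to 1000 UMIs. For Cacna1c the thinned share was 57.7% of p53KO_TAC and 67.6% of WT_TAC cells, an order opposite to that of its CPM, and 7.23% of p53KO_TAC and 27.8% of WT_TAC B-like cells had a UMI of it.

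The promoters of 3 genes that differed between the libraries, Slc8a1 and Casq2 (higher in p53KO_TAC) and Pln (lower), are printed from RefSeq (GRCm38.p6, the build mm10). Each runs from 250 bases before the gene's start to 50 after it, 5′ to 3′ on the gene's own strand. Slc8a1 lies on the minus strand at chr17:81738338-81738637, Pln on the plus strand at chr10:53337436-53337735 and Casq2 on the plus strand at chr3:102086165-102086464. Capitals mark AGATAA on either strand, letters that GATA factors recognise, in Slc8a1 and Pln, and a match to the MEF2 consensus in Casq2.
Slc8a1: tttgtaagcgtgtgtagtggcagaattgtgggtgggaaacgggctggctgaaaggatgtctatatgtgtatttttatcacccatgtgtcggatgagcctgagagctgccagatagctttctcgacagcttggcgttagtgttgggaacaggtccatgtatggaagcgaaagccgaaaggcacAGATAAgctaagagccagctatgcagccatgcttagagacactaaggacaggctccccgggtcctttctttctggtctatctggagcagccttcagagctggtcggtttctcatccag
Pln: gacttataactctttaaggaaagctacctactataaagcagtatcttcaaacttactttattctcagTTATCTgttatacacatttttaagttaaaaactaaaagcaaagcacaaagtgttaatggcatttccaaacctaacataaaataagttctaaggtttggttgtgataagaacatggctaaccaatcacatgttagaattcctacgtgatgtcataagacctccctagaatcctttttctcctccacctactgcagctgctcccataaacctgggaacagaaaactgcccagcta
Casq2: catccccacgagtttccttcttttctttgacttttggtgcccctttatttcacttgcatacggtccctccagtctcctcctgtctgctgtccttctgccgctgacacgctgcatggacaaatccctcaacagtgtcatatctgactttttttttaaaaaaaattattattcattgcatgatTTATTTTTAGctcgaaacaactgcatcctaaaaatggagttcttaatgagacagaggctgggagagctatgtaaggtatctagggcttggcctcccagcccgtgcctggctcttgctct
AGATAA occurred in 11.2% of 32851 promoters of this length and the MEF2 consensus in 3.19%. Of the 8 genes of the set with a promoter in the table, Slc8a1 and Pln held AGATAA and Casq2 alone held the MEF2 match. Slc8a1 and Pln, which share AGATAA, differed in opposite directions between the libraries. These matches are letters in a window, not measured binding.

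Of the genes that read out calcium, the kinase differed little and the calcineurin regulator was somewhat higher. Camk2d (ENSMUSG00000053819, chromosome 3, 126596302 to 126846326, plus strand) had 823 (95% interval 786 to 861) CPM in the p53KO_TAC library and 779 (95% interval 757 to 801) CPM in the WT_TAC library, a log2 ratio of 0.079 (interval 0.0011 to 0.16). Rcan1 (ENSMUSG00000022951, chromosome 16, 92391953 to 92470867, minus strand) had 64.2 (95% interval 54.2 to 75.5) CPM in the p53KO_TAC library and 41.6 (95% interval 36.7 to 47.0) CPM in the WT_TAC library. These levels came from 146 UMIs in p53KO_TAC and 260 UMIs in WT_TAC, and the log2 ratio was 0.63 (interval 0.32 to 0.92). After thinning to 500 UMIs, a Camk2d UMI was found in 23.6% of p53KO_TAC and 24.8% of WT_TAC cells of the class and in 28.5% of p53KO_TAC and 26.6% of WT_TAC B-like cells. An Rcan1 UMI was found in 2.88% of p53KO_TAC and 1.90% of WT_TAC cells of the class and in 1.28% of p53KO_TAC and 0% of WT_TAC B-like cells. B-like cells are thus no class without Camk2d. Rcan1 has 2 promoters in the RefSeq table, printed because calcineurin, through NFAT factors, is known to drive the downstream one. Both lie on the minus strand, at chr16:92400029-92400328 (downstream) and chr16:92466120-92466419 (upstream), with GGAAA, the NFAT core, in capitals on either strand.
Rcan1 downstream: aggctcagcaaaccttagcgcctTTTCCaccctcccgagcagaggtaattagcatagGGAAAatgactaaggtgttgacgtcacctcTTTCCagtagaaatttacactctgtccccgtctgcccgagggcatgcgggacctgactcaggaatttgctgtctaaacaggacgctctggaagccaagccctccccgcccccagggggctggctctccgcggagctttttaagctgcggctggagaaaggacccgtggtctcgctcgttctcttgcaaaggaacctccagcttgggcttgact
Rcan1 upstream: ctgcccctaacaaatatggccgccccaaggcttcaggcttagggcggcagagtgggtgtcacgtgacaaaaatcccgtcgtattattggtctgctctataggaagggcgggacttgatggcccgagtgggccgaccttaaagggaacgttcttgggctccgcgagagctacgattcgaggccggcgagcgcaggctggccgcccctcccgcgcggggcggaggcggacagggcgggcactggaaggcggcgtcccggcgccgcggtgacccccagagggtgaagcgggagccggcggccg
The downstream promoter held 3 matches and the upstream one 0. GGAAA is common: 61.3% of promoters held it at least once and 9.42% at least 3 times. The counts here are per gene and do not say from which promoter the Rcan1 UMIs came.

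The class was made of different clusters in the 2 libraries. Cluster 2 held 99 p53KO_TAC and 2114 WT_TAC cells, cluster 5 held 19 p53KO_TAC and 1798 WT_TAC cells, cluster 13 held 431 p53KO_TAC and 37 WT_TAC cells, and cluster 7 held 328 p53KO_TAC and 945 WT_TAC cells. With most of cluster 13 from 1 library, a state of cells and a property of that library cannot be told apart. Cluster 7 was rich in mitochondrial RNA, with a median mitochondrial share of 18.7% in p53KO_TAC and 19.0% in WT_TAC. Over the other 3 clusters the median was 1.01% in p53KO_TAC and 1.99% in WT_TAC. Cluster 7 took 37.4% of the class in p53KO_TAC and 19.3% in WT_TAC, and Nppa, Mb, Actc1, Cox6a2 and Nppb led its genes. Haemoglobin RNA summed to 11101 CPM in p53KO_TAC and 2094 CPM in WT_TAC in cluster 7, and to 1025 CPM in p53KO_TAC and 338 CPM in WT_TAC in the other clusters; its part in the results was not tested. The pooled ratios rest on this makeup. Without cluster 13, most p53KO_TAC cells left are those of cluster 7, and the pooled log2 ratio became -0.40 for Slc8a1, -0.86 for Ryr2, -1.36 for Cacna1c, -1.15 for Camk2d and 0.35 for Atp2a2. All 5 thereby changed direction. Of the others, Jph2 then had 0.24, Casq2 1.48, Pln -0.035 and Rcan1 1.11, so the ratios within clusters are needed beside the pooled ones.

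The exchanger's difference lay in the 3 clusters low in mitochondrial RNA. There Slc8a1 had 8516 (95% interval 8377 to 8656) CPM in the p53KO_TAC library and 3437 (95% interval 3387 to 3487) CPM in the WT_TAC library, a log2 ratio of 1.31 (interval 1.28 to 1.34). In cluster 7 it had 1083 (95% interval 1000.3 to 1169.9) CPM in the p53KO_TAC library and 1037 (95% interval 973 to 1106) CPM in the WT_TAC library, a ratio of 0.062 (interval -0.085 to 0.21) that became -0.14 (interval -0.31 to 0.017) without its cells that held an atrial gene. The ratio was 1.45 (interval 1.33 to 1.57) within cluster 2, 1.32 (interval 1.16 to 1.47) within cluster 5 and 1.29 (interval 1.10 to 1.501) within cluster 13. The higher Slc8a1 level of p53KO_TAC was therefore present in each of these clusters taken alone, including those made up mostly of WT_TAC cells. Ryr2 had log2 ratios of 0.77, 0.75 and 0.50 in clusters 2, 5 and 13 and 0.034 (interval -0.064 to 0.13) in cluster 7, so the release channel too was higher in the 3 clusters alone. Jph2 had 397 CPM in p53KO_TAC and 197 CPM in WT_TAC in the 3 clusters, a ratio of 1.01 (interval 0.87 to 1.15), and 207 CPM in p53KO_TAC and 248 CPM in WT_TAC in cluster 7, a ratio of -0.26 (interval -0.59 to 0.061). Within cluster 2 taken alone the Jph2 ratio was 1.15 (interval 0.58 to 1.64). Within cluster 5 it was 0.72 (interval -0.2999 to 1.47), from 12 UMIs in p53KO_TAC. Within cluster 13 it was 0.605 (interval -0.082 to 1.497), so counting error leaves its direction open in clusters 5 and 13. Cacna1c was higher in p53KO_TAC in the 3 clusters, with a log2 ratio of 0.36 (interval 0.33 to 0.40). It was lower in cluster 7, with -0.66 (interval -0.84 to -0.49). Camk2d had 0.26 (interval 0.18 to 0.34) in the 3 clusters pooled and -0.48 (interval -0.78 to -0.19) in cluster 7. Within clusters 2 and 13 taken alone its ratios were -0.17 (interval -0.66 to 0.24) and -0.13 (interval -0.47 to 0.25), and within cluster 5, with 19 p53KO_TAC cells, 0.64 from 58 UMIs in p53KO_TAC and 3306 UMIs in WT_TAC.

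Casq2 ran the other way. In cluster 7 it had 1211 CPM in p53KO_TAC and 412 CPM in WT_TAC, a log2 ratio of 1.56 (interval 1.37 to 1.74), and in the other clusters 599 CPM in p53KO_TAC and 398 CPM in WT_TAC, a log2 ratio of 0.59 (interval 0.48 to 0.70). Casq2 was thus higher in p53KO_TAC in both, and by more in the cells rich in mitochondrial RNA, while in WT_TAC its level was nearly the same in both kinds of cluster. The 5 atrial genes summed to 2735 CPM in p53KO_TAC and 36.0 CPM in WT_TAC in cluster 7. Without its cells that held an atrial gene, the Casq2 ratio in cluster 7 was 1.51 (interval 1.32 to 1.70), so it was about as large without them. Pln was lower in p53KO_TAC chiefly in the 3 clusters low in mitochondrial RNA, with 1834 CPM in p53KO_TAC and 3279 CPM in WT_TAC and a ratio of -0.84 (interval -0.89 to -0.78). In cluster 7 it had 3709 CPM in p53KO_TAC and 4250.4 CPM in WT_TAC, a ratio of -0.20 (interval -0.27 to -0.12) that became -0.029 (interval -0.11 to 0.049) without the cells that held an atrial gene. Within each of clusters 2, 5 and 13 Pln was lower, with log2 ratios of -1.15, -0.83 and -0.47. Pln UMIs per 100 Atp2a2 UMIs were 56.9 in p53KO_TAC and 88.8 in WT_TAC in those 3 clusters, and 67.9 in p53KO_TAC and 71.4 in WT_TAC in cluster 7. Without the cells that held an atrial gene, the order in cluster 7 turned, at 75.5 in p53KO_TAC and 71.2 in WT_TAC. Slc8a1 UMIs per 100 Atp2a2 UMIs were 264 in p53KO_TAC and 93.0 in WT_TAC in the 3 clusters, and 19.8 in p53KO_TAC and 17.4 in WT_TAC in cluster 7, where the log2 ratio of these numbers was -0.032 without the cells that held an atrial gene. Atp2a2 itself was close between libraries in both, with log2 ratios of -0.20 (interval -0.24 to -0.15) in the 3 clusters pooled and -0.12 (interval -0.19 to -0.061) in cluster 7. Within clusters 2, 5 and 13 taken alone its ratios were -0.077 (interval -0.29 to 0.12), -0.0011 (interval -0.24 to 0.22) and -0.021 (interval -0.22 to 0.20). In cluster 7, 2 of the 9 genes with at least 100 UMIs in 1 library, Sln and Casq2, were at least 2-fold higher, beside 3.68% of all genes, and 0 at least 2-fold lower, beside 10.6%. In the other clusters pooled these 2 were Slc8a1 and Jph2, also of 9, beside 2.08%, and 0 were lower, beside 14%. Jph2 did not pass 2-fold within clusters 5 and 13 taken alone.

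**Figure D2:**
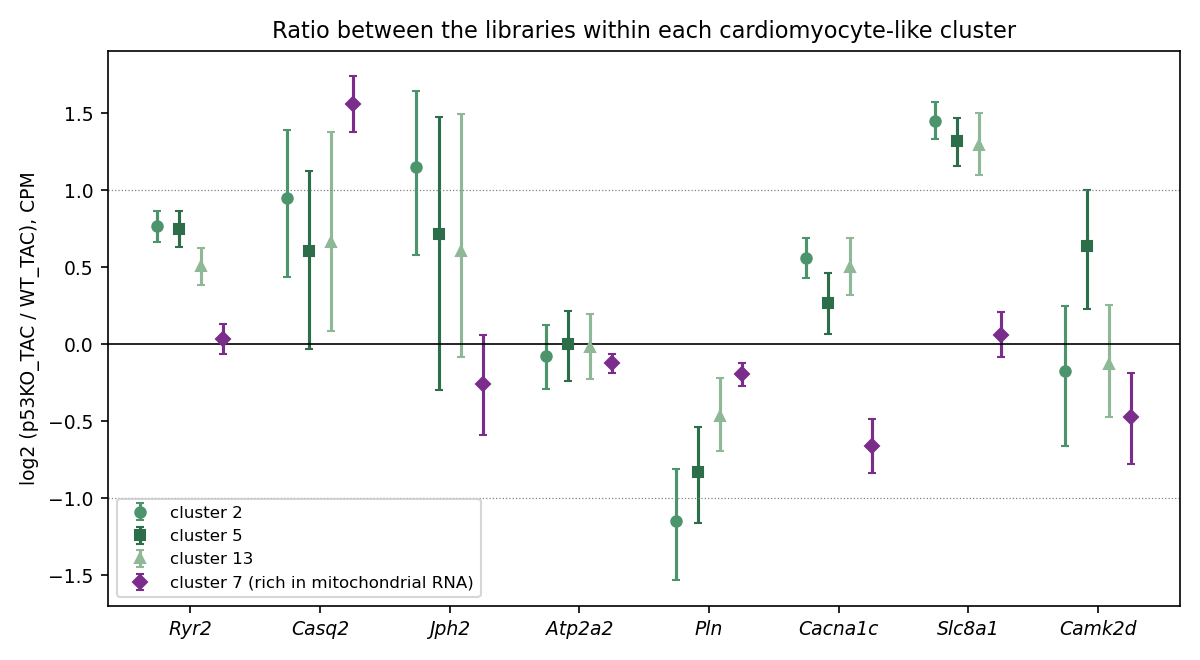
Log2 ratio of p53KO_TAC over WT_TAC in CPM within each cardiomyocyte-like cluster, with exact 95% intervals for counting error and dotted lines at 2-fold. Sln and Rcan1 are not drawn, having 0 or few UMIs in some clusters. Slc8a1 and Ryr2 lie above 0 in clusters 2, 5 and 13 and near 0 in cluster 7, and Casq2 lies highest in cluster 7.

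For Slc8a1, Casq2 and in part Pln, the pattern was also seen when cells were ordered by mitochondrial share rather than by cluster. The 6 bins were chosen after the data were seen. In cells with at most 1% mitochondrial UMIs, Slc8a1 had 8824 CPM in p53KO_TAC and 4277 CPM in WT_TAC, and in cells with over 2% and up to 5% it had 7861 CPM in p53KO_TAC and 3030.2 CPM in WT_TAC. In cells with over 5% and up to 10% it had 2288 CPM in p53KO_TAC and 2138 CPM in WT_TAC, and above 20% it had 877 CPM in p53KO_TAC and 906 CPM in WT_TAC. The libraries were apart in the first 3 bins and close in the last 3. Casq2 in p53KO_TAC was steady up to 5%, at 594, 593 and 625 CPM in the first 3 bins, and lay between 1103 and 1268 CPM above 5%. In WT_TAC Casq2 lay between 365 and 442 CPM throughout. Up to 10%, Pln lay between 1602 and 2096 CPM in p53KO_TAC and between 2849 and 3429 CPM in WT_TAC, without overlap. From over 10% to 20% Pln had 3822 CPM in p53KO_TAC and 3856 CPM in WT_TAC, and the libraries were close, but above 20% it had 4142 CPM in p53KO_TAC and 5037 CPM in WT_TAC, a log2 ratio of -0.28 (interval -0.38 to -0.18). Ryr2 and Atp2a2 changed sign within the cells above 5%. Ryr2 had a log2 ratio of 0.32 (interval 0.16 to 0.47) from over 10% to 20% and -0.48 (interval -0.65 to -0.31) above 20%. Atp2a2 had 0.34 (interval 0.19 to 0.49) from over 5% to 10% and -0.39 (interval -0.47 to -0.30) above 20%. The smallest bin held 70 cells in p53KO_TAC and 276 in WT_TAC.

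**Figure D3:**
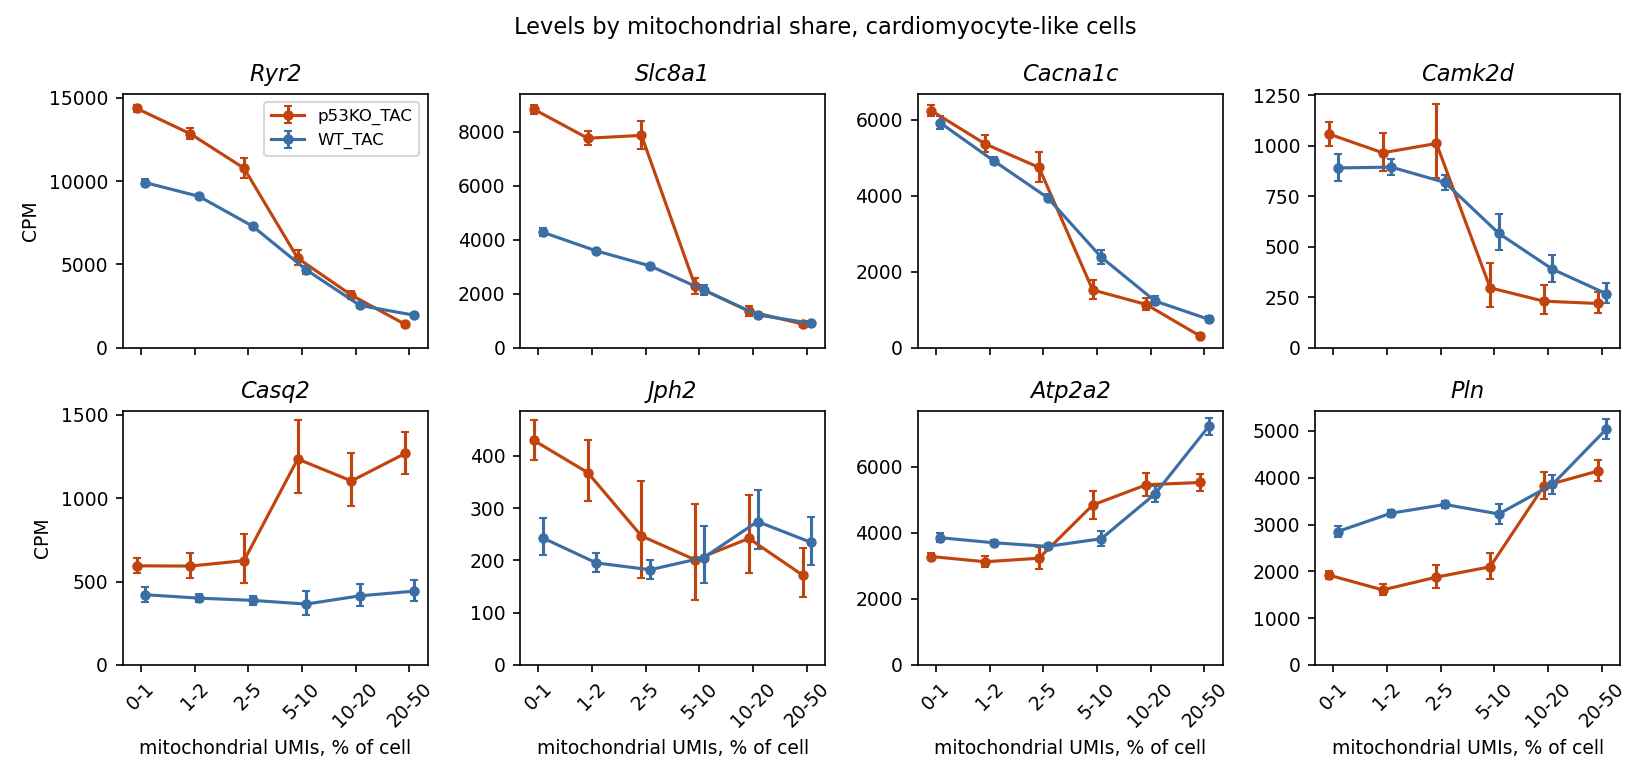
Levels of 8 genes in cardiomyocyte-like cells by the share of a cell's UMIs that are mitochondrial, in CPM of nuclear-encoded UMIs (p53KO_TAC orange, WT_TAC blue; exact 95% Poisson intervals, counting error only). Ryr2, Slc8a1, Cacna1c and Camk2d drop towards high mitochondrial shares in both libraries, whereas Casq2 is higher above 5% than below it in p53KO_TAC and stays level in WT_TAC.

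For 6 of the 10 genes, the difference between cluster 7 and the other clusters had the same direction in both libraries, beyond counting error. Ryr2, Cacna1c, Slc8a1 and Camk2d were lower in cluster 7 in both libraries. Their log2 ratios of cluster 7 over the others were -2.54, -3.24, -2.97 and -2.09 in p53KO_TAC and -1.86, -2.21, -1.73 and -1.35 in WT_TAC. Atp2a2 and Pln were higher there, with 0.76 and 1.02 in p53KO_TAC and 0.69 and 0.37 in WT_TAC. Jph2 was lower in cluster 7 in p53KO_TAC, at -0.94, and higher there in WT_TAC, at 0.34. Casq2 had 1.02 in p53KO_TAC and 0.050 in WT_TAC, Rcan1 0.71 in p53KO_TAC and -0.033 in WT_TAC, and Sln 5.73 in p53KO_TAC, with too few UMIs in WT_TAC. Ryr2, Cacna1c, Slc8a1 and Camk2d are the longest genes of the set, spanning 250.03 to 609 kb of genome, whereas Atp2a2 spans 48.7 kb and Pln 8.32 kb. All genes of over 200 kb took 9.68% of UMIs in p53KO_TAC and 12.0% in WT_TAC in cluster 7, and 23.8% in p53KO_TAC and 20.9% in WT_TAC in the other clusters. Between libraries, genes of over 200 kb had a median log2 ratio of -0.60 in cluster 7 and -0.15 in the others. Beside these medians stand 0.034 in cluster 7 and 0.72 in the others for Ryr2, and 0.062 and 1.31 for Slc8a1. For Cacna1c they were -0.66 in cluster 7 and 0.36 in the others, and for Camk2d -0.48 and 0.26. In cluster 7 Cacna1c and Camk2d thus lay near the median of genes of over 200 kb. Markers of other classes in cluster 7 summed to 2441 CPM in p53KO_TAC and 3446 CPM in WT_TAC for 12 fibroblast genes, and to 2497 CPM in p53KO_TAC and 3239 CPM in WT_TAC for 11 vascular endothelial genes, with none of them at 0; their part was not tested.

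Depth differed too, at a median of 1743 UMIs per cardiomyocyte-like cell in p53KO_TAC and 990.0 in WT_TAC. In cells of 500 to 1500 UMIs the medians were 842 in p53KO_TAC and 831 in WT_TAC. There Slc8a1 had 6659 CPM in p53KO_TAC and 3055 CPM in WT_TAC, a log2 ratio of 1.12 (interval 1.05 to 1.19). Jph2 and Casq2 also passed 2-fold at this depth, with ratios of 1.18 (interval 0.92 to 1.42) and 1.02 (interval 0.80 to 1.22), so that 3 of the 9 genes with at least 100 UMIs in 1 library were at least 2-fold higher, beside 3.01% of all genes. None was at least 2-fold lower, beside 11%. Pln was lower here as well, at -0.48 (interval -0.60 to -0.37), and Camk2d turned to -0.19 (interval -0.42 to 0.016). At this depth cluster 7 gave Slc8a1 a ratio of -0.66 (interval -1.04 to -0.33) and the other clusters 1.43 (interval 1.36 to 1.498), so the 2 kinds of cell lay on opposite sides of 0.

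Genes of the stressed ventricle were far higher in p53KO_TAC. Nppb, a natriuretic peptide, had 1514 CPM in p53KO_TAC and 81.8 CPM in WT_TAC, and Myh7, the slow myosin heavy chain, had 2154 CPM in p53KO_TAC and 184 CPM in WT_TAC. After thinning to 500 UMIs, 67.4% of p53KO_TAC and 13.3% of WT_TAC cardiomyocyte-like cells had a UMI of Nppb, Myh7 or the skeletal actin Acta1. Within each library the calcium genes were compared between these cells and the rest. In p53KO_TAC, Slc8a1 had 5608 CPM in cells with such a UMI and 8348 CPM in cells without. In WT_TAC it had 2739 CPM in cells with one and 3145 CPM in cells without. The exchanger was thus lower in the cells with a stress gene UMI in both libraries, and higher in p53KO_TAC than in WT_TAC in both kinds of cell. Ryr2, Cacna1c and Camk2d were lower in them as well, by log2 ratios of -0.59, -0.56 and -0.43 in p53KO_TAC and -0.33, -0.27 and -0.35 in WT_TAC. Atp2a2 and Casq2 were higher in them, by 0.26 and 0.43 in p53KO_TAC and 0.23 and 0.20 in WT_TAC. In p53KO_TAC the median mitochondrial share was 4.14% in cells with such a UMI and 1.08% in cells without. In WT_TAC it was 3.29% in cells with one and 2.26% in cells without, and the part of that share in the differences was not tested.

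As a whole, the wider calcium machinery stood close to all genes. Of 85 further calcium genes in 6 lists, 83 were found in the files by symbol, and of these 76 had at least 20 UMIs over both libraries in cardiomyocyte-like cells. Of these 5 were at least 2-fold higher and 8 at least 2-fold lower in p53KO_TAC, or 6.58% and 10.5%. Of all genes at that minimum, 4.21% were at least 2-fold higher and 15.5% at least 2-fold lower. The median log2 ratio was -0.19 over the lists and -0.25 over all genes.

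In the list of release channels and proteins of the junction, 2 of 16 measured genes were at least 2-fold higher and 0 at least 2-fold lower, with a median of -0.040. Ryr3, another ryanodine receptor, had 34.3 CPM in p53KO_TAC and 9.44 CPM in WT_TAC, from 78 UMIs in p53KO_TAC and 59 UMIs in WT_TAC. Casq1, the skeletal calsequestrin, was the other gene past 2-fold, at 7.47 CPM in p53KO_TAC and 3.68 CPM in WT_TAC from 17 UMIs in p53KO_TAC and 23 UMIs in WT_TAC, and is named after its value was seen. Trdn, which anchors calsequestrin to the release channel, had 1450.3 CPM in p53KO_TAC and 1462 CPM in WT_TAC, with a log2 ratio of -0.011 (interval -0.069 to 0.046). Asph, the gene of junctin, had 485 CPM in p53KO_TAC and 427 CPM in WT_TAC, and Speg, a kinase of the junction, had 415 CPM in p53KO_TAC and 301 CPM in WT_TAC. Hrc, a calcium-binding protein of the store, was the lowest of the list, at 175 CPM in p53KO_TAC and 297 CPM in WT_TAC, a ratio of -0.76 (interval -0.93 to -0.61). Pooled over the class, Trdn and Asph, the partners that tie calsequestrin to the channel, thus differed less than Casq2 and Ryr2 themselves. In cluster 7 alone this did not hold for Ryr2. There the log2 ratios were -0.26 for Trdn and 0.41 for Asph, beside 0.034 for Ryr2 and 1.56 for Casq2.

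The pumps and small regulators stood lowest. Of 6 measured genes, 2 were at least 2-fold lower and none at least 2-fold higher, with a median of -0.79. Strit1, which encodes the pump activator DWORF, had 4.84 CPM in p53KO_TAC and 19.8 CPM in WT_TAC, from 11 UMIs in p53KO_TAC and 124 UMIs in WT_TAC, a log2 ratio of -1.98 (interval -3.08 to -1.15). Atp2c1, a pump of the Golgi, had 97.2 CPM in p53KO_TAC and 213 CPM in WT_TAC. Atp2b1, a pump of the cell membrane, had 118 CPM in p53KO_TAC and 152 CPM in WT_TAC. S100a1, which enhances the pump and the release channel, was the only measured gene of the list above 0, at 271 CPM in p53KO_TAC and 201 CPM in WT_TAC, and its log2 ratio became -1.15 without cluster 7. In the 3 clusters low in mitochondrial RNA all 6 measured genes of this list were below 0, with a median of -1.15, beside -0.35 for all genes there. Of all 13095 genes measured there, 9479 were below 0. In cluster 7 the list's median was 0.070, and Atp2c1 had 0.079 there.

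Among channels of the cell membrane 2 of 15 measured genes were at least 2-fold higher and 2 at least 2-fold lower, with a median of 0.24. Of the partners of the L-type pore, Cacna2d1 had 959.7 CPM in p53KO_TAC and 666 CPM in WT_TAC, a log2 ratio of 0.53 (interval 0.45 to 0.60), and Cacnb2 had 1100.4 CPM in p53KO_TAC and 838 CPM in WT_TAC, a ratio of 0.39 (interval 0.32 to 0.46). Rrad, a small GTPase that holds the L-type channel back, had 178 CPM in p53KO_TAC and 95.1 CPM in WT_TAC, a ratio of 0.91 (interval 0.72 to 1.09). In cluster 7 alone the ratios were -0.31 for Cacna2d1, -0.49 for Cacnb2 and 0.61 for Rrad, so Cacna2d1 and Cacnb2 turned as Cacna1c did. The extremes of the list were Cacna2d2, with 23 UMIs in p53KO_TAC and 13 UMIs in WT_TAC, and Cacna1s, the skeletal pore, with 4 UMIs in p53KO_TAC and 62 UMIs in WT_TAC. Cacna2d2 was thus at 10.1 CPM in p53KO_TAC and 2.08 CPM in WT_TAC, and Cacna1s at 1.76 CPM in p53KO_TAC and 9.92 CPM in WT_TAC.

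Exchangers other than Slc8a1 had few UMIs. Slc8a2, the 1 gene of 7 measured in its list that passed 2-fold upwards, had 16 UMIs in p53KO_TAC and 9 UMIs in WT_TAC, or 7.03 CPM in p53KO_TAC and 1.44 CPM in WT_TAC. None of the list was at least 2-fold lower. Slc8b1, the mitochondrial exchanger, had 7.47 CPM in p53KO_TAC and 12.8 CPM in WT_TAC. Fxyd1, which encodes the small membrane protein phospholemman, had 344 CPM in p53KO_TAC and 484 CPM in WT_TAC, a ratio of -0.49 (interval -0.61 to -0.38). In cluster 7 alone the log2 ratios turned, to 0.15 for Fxyd1 and 0.072 for Slc8b1.

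Of 23 measured calmodulin, kinase and phosphatase genes 2 were at least 2-fold lower and none higher, with a median of -0.21. Pde4d, a phosphodiesterase of the release channel complex, had 4076 CPM in p53KO_TAC and 3838 CPM in WT_TAC. Akap6, a scaffold of that complex, had 1103 CPM in p53KO_TAC and 864 CPM in WT_TAC, and Rcan2, a relative of Rcan1, had 1289 CPM in p53KO_TAC and 1000.4 CPM in WT_TAC. In cluster 7 alone the log2 ratios turned for Pde4d, to -0.54, and for Akap6, to -0.50. Camk2b, a relative of Camk2d, was the lowest of the list, with 8 UMIs in p53KO_TAC and 83 UMIs in WT_TAC, and Nfatc4, a target of calcineurin, the highest, with 19 UMIs in p53KO_TAC and 34 UMIs in WT_TAC. Ppp1r1a, an inhibitor of protein phosphatase, was the other gene past 2-fold, with 2 UMIs in p53KO_TAC and 19 UMIs in WT_TAC, and is named after its value was seen. The log2 ratio of Nfatc4 was 0.63 (interval -0.27 to 1.47) in the class, 1.69 in cluster 7 and -0.47 in the other clusters. Of 9 measured genes of mitochondrial calcium 2 were at least 2-fold lower and none higher, with a median of -0.19. They were Mcub, which limits the uniporter, with 5 UMIs in p53KO_TAC and 30 UMIs in WT_TAC, and Micu3, named after its value was seen, with 48.8 CPM in p53KO_TAC and 98.1 CPM in WT_TAC. Vdac1 and Vdac2 form channels of the outer membrane. Vdac1 had 274 CPM in p53KO_TAC and 189 CPM in WT_TAC, and Vdac2 had 212 CPM in p53KO_TAC and 183 CPM in WT_TAC. Micu2, a gatekeeper of the uniporter, had 93.2 CPM in p53KO_TAC and 114 CPM in WT_TAC, and Smdt1, a uniporter subunit, was the highest of the list, at 61.5 CPM in p53KO_TAC and 36.8 CPM in WT_TAC. Without cluster 7 the log2 ratios turned, to -0.33 for Smdt1, -0.40 for Vdac1 and -0.25 for Vdac2. Micu2 turned in cluster 7 alone, to 0.25.

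**Figure D4:**
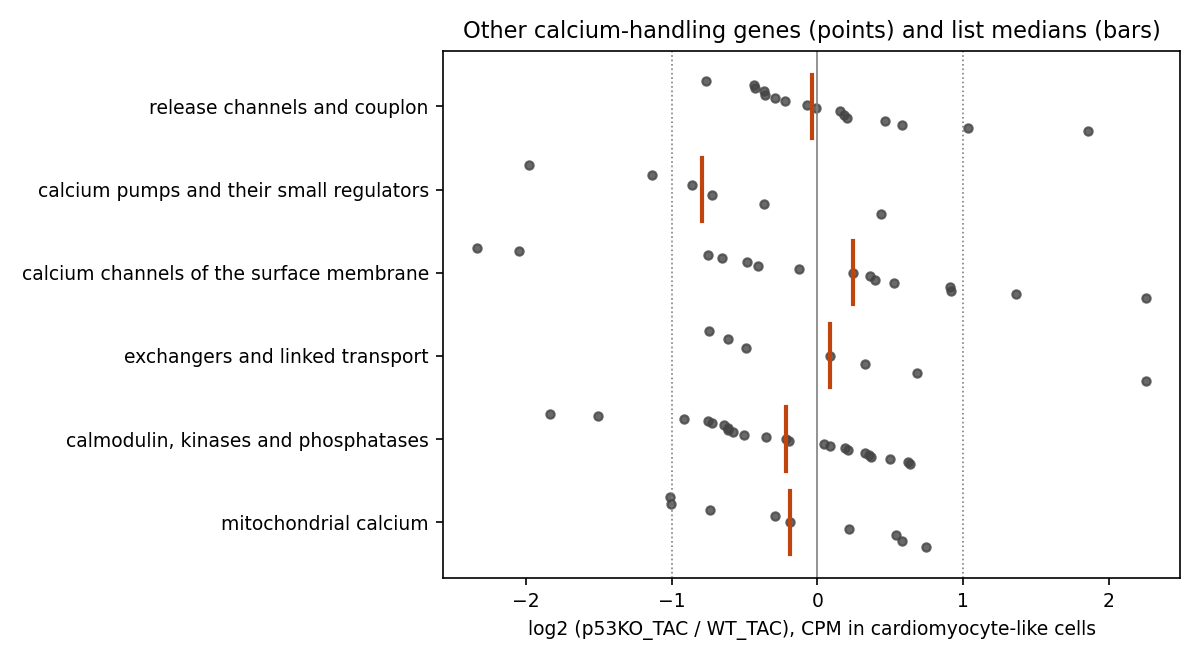
Log2 ratio of p53KO_TAC over WT_TAC in cardiomyocyte-like cells for 76 further calcium genes in 6 lists, 1 point per gene, with the list median as an orange bar and 2-fold as dotted lines. The pumps and their small regulators have the lowest median, -0.79, and the other medians lie between -0.21 and 0.24.

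Profiles over 22 sums, those of 11 classes in each library, were used to find the genes most like each of the 10 among 9524 candidates. Ryr2 and Atp2a2 were both most like Tnni3k, a cardiac kinase (Pearson r 0.979 and 0.979), and were among each other's first 3. Pln was most like the sarcomere genes Tnnt2, Tnni3 and Myl2 (r 0.987 to 0.981). Jph2 and Cacna1c were each other's first match (r 0.960), followed by Akap6 for both. Casq2 was most like Speg and Jph2 (r 0.938 and 0.905), and Sln most like the atrial light chain Myl4 (r 0.95), followed by Ankrd1 and Nppb. Slc8a1 had weaker matches, with Psme4, Prune2 and Hk2 (r 0.895 to 0.865), as had Camk2d with Arfgef2, Ganc and Ktn1 (r 0.832 to 0.795) and Rcan1 with C1qbp, Zw10 and Ascc1 (r 0.856 to 0.816). The sums of a library share their depth and free RNA, so these values are descriptions.

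Outside the cardiomyocyte-like cells, RNA of muscle genes was found in every class. Libraries of this kind are known to hold free RNA of broken cells, which is counted in all droplets. In the 10 other classes with at least 50 cells per library, the 12 cardiomyocyte markers stood at 3.22 to 7.24% of their level in cardiomyocyte-like cells in p53KO_TAC and at 10.2 to 22.7% in WT_TAC. Levels below are therefore set against the level that such RNA would give, written as times free RNA. Except where fewer UMIs are stated, a gene is described in a class only where it had at least 100 UMIs and at least 2 times that level in 1 library. Ryr2, Pln and Sln met this in no class. In B-like cells, for instance, Ryr2 had 304 CPM in p53KO_TAC (0.605 times free RNA) and 1019 CPM in WT_TAC (0.600 times). Pln lay above that level in the B-like cells of p53KO_TAC. It had 185 CPM there and 2320 CPM in cardiomyocyte-like cells, while the 12 markers stood at 4.65%. Muscle genes thus differ on this scale, and levels little above 2 times are read with that limit.

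Camk2d stood above free RNA in all of these classes. Over the 9 named classes besides cardiomyocyte-like cells it stood at 237 to 776 CPM in p53KO_TAC and 322 to 815 CPM in WT_TAC. That was 8.93 to 20.3 times free RNA in p53KO_TAC and 1.99 to 4.61 times in WT_TAC. B-like cells had the highest level of the 9 in both libraries, and their interval overlapped that of cardiomyocyte-like cells, which had 823 CPM in p53KO_TAC and 779 CPM in WT_TAC. Between libraries its log2 ratio was 0.50 (interval 0.25 to 0.75) in pericyte-like, -0.36 (interval -0.49 to -0.23) in endocardial-like and -0.54 (interval -0.92 to -0.15) in mesothelial-like cells. In the unnamed cluster 0, with 154 p53KO_TAC and 3035 WT_TAC cells, Camk2d had 364 CPM in p53KO_TAC (10.3 times free RNA) and 341 CPM in WT_TAC (3.18 times). Rcan1 passed the rule of UMIs and free RNA given above in endocardial-like, vascular endothelial-like and fibroblast-like cells. The other classes compared here had too few Rcan1 UMIs for that rule, so their standing against free RNA is not described. Among them Rcan1 ran in p53KO_TAC from 8.77 CPM in pericyte-like to 49.4 CPM in lymphatic endothelial-like cells. It had 26.9 CPM in p53KO_TAC (12.5 times free RNA) and 42.4 CPM in WT_TAC (7.20 times) in endocardial-like cells, 32.0 CPM in p53KO_TAC (13.9 times free RNA) and 23.6 CPM in WT_TAC (3.48 times) in vascular endothelial-like cells, and 28.9 CPM in p53KO_TAC (14.0 times free RNA) and 22.0 CPM in WT_TAC (5.16 times) in fibroblast-like cells. The Rcan1 levels in fibroblast-like cells came from 115 UMIs in p53KO_TAC and only 3 in WT_TAC. In endocardial-like cells, which line the chambers, Rcan1 was lower in p53KO_TAC, a ratio of -0.66 (interval -1.09 to -0.21). This class too was made of different clusters in the 2 libraries. Cluster 3 held 496 p53KO_TAC and 1622 WT_TAC cells, and cluster 8 held 1176 p53KO_TAC and 12 WT_TAC cells. The part of this makeup in the endocardial-like ratios of Rcan1 and Camk2d was not tested.

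The exchanger and the L-type pore also stood above free RNA in cells of the vessel wall and in fibroblast-like cells, and the exchanger in macrophage-like cells. Slc8a1 had 1319.9 CPM in p53KO_TAC (4.56 times free RNA) and 1266 CPM in WT_TAC (2.84 times) in macrophage-like cells, with a log2 ratio of 0.060 (interval -0.048 to 0.17). In smooth muscle-like cells it had 1078 CPM in p53KO_TAC (2.26 times free RNA) and 1601 CPM in WT_TAC (2.33 times), a ratio of -0.58 (interval -0.94 to -0.19). In pericyte-like cells it had 742 CPM in p53KO_TAC (2.75 times free RNA) and 892 CPM in WT_TAC (1.93 times), a ratio of -0.26 (interval -0.48 to -0.054), and in fibroblast-like cells 726 CPM in p53KO_TAC (3.42 times free RNA) and 673 CPM in WT_TAC (2.14 times), a ratio of 0.10 (interval -0.19 to 0.42). In none of these 4 classes was Slc8a1 2-fold higher, as it was in cardiomyocyte-like cells, and the difference between classes was not tested. Cacna1c had 1108 CPM in p53KO_TAC (5.93 times free RNA) and 1065 CPM in WT_TAC (1.74 times) in pericyte-like cells, a log2 ratio of 0.057 (interval -0.12 to 0.24) that became -0.18 with median-of-ratios scaling. In fibroblast-like cells it had 419.9 CPM in p53KO_TAC (2.86 times free RNA) and 461 CPM in WT_TAC (1.11 times), a ratio of -0.15 (interval -0.50 to 0.25). In smooth muscle-like cells it had 1131 CPM in p53KO_TAC (3.43 times free RNA) and 1419 CPM in WT_TAC (1.56 times), a ratio of -0.33 (interval -0.71 to 0.075) that became 0.11 with that scaling, which moved all genes of the class by 0.45. Smooth muscle-like cells numbered only 97 in p53KO_TAC and 53 in WT_TAC. Fibroblast-like cells numbered 1848 in p53KO_TAC and only 102 in WT_TAC. The part of this unequal makeup in the fibroblast-like ratios was not tested.

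Casq2 stood out in pericyte-like cells, the contractile cells around capillaries, with 254 CPM in p53KO_TAC (8.18 times free RNA) and 288 CPM in WT_TAC (4.80 times). These levels came from 87 UMIs in p53KO_TAC and 213 in WT_TAC. The Casq2 ratio there was -0.18 (interval -0.56 to 0.19), beside 0.92 in cardiomyocyte-like cells, and the difference was not tested. Jph2 had 36.5 CPM in p53KO_TAC (3.26 times free RNA) and 36.6 CPM in WT_TAC (1.75 times) in fibroblast-like cells, from 145 UMIs in p53KO_TAC and 5 in WT_TAC.

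Atp2a2, whose pump serves the endoplasmic reticulum of all cells, passed that rule in 8 classes, in each through the p53KO_TAC library. There it stood at 280.1 to 576 CPM in p53KO_TAC and 651 to 1378 CPM in WT_TAC, with log2 ratios of -1.45 to -0.69. The levels were 2.09 to 3.31 times what free cardiomyocyte RNA would give in p53KO_TAC and 1.17 to 1.58 times in WT_TAC. The WT_TAC levels were thus higher in CPM and nearer to those of free RNA, whose part in the difference was not tested. The limit of this scale, given above for Ryr2 and Pln, holds for Atp2a2 too.

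**Figure D5:**
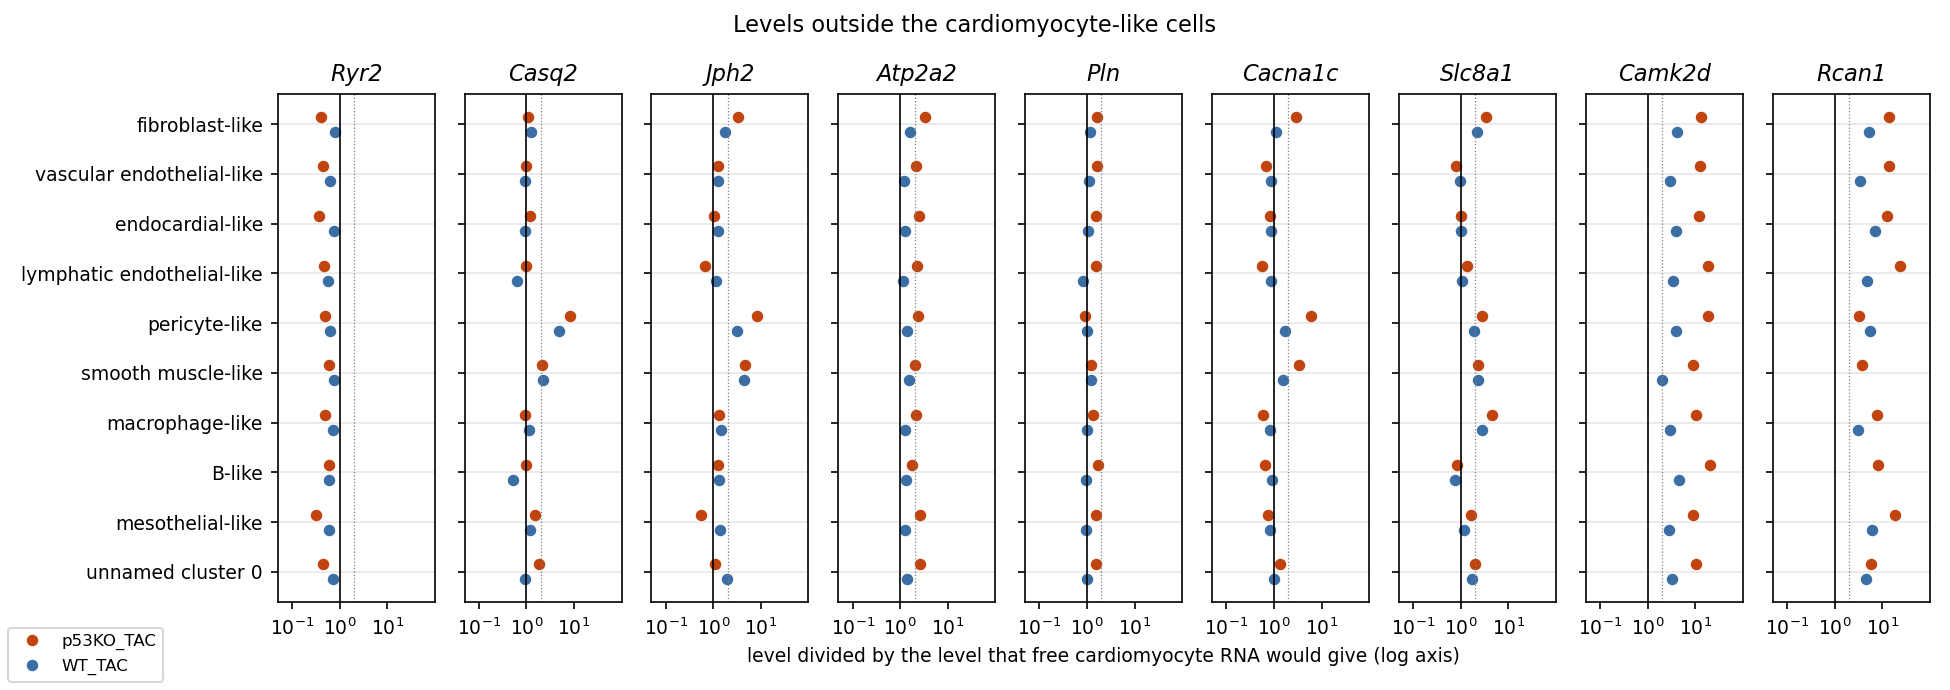
Level of 9 genes in each other class, divided by the level that free cardiomyocyte RNA would give in that library (log axis; solid line at 1, dotted line at 2; p53KO_TAC orange and above WT_TAC in blue). Ryr2 and Pln lie below 2 in every class shown, Camk2d lies right of 2 in every class of p53KO_TAC, and Casq2 and Cacna1c lie furthest right in pericyte-like cells. Points of fewer than 100 UMIs are included, those of 0 UMIs are not drawn, and Sln is not shown for want of UMIs.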

How the data were processed

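Single-cell libraries were made from left ventricle of p53KO_TAC and WT_TAC mice, 1 library per group. The authors deposited UMI counts per gene and cell, made with Cell Ranger and handled with Seurat on mm10, per the submitters' processing notes, without versions. A 10x 3′ kit was used per the labels' protocols, whereas the barcodes are 3 blocks of 9 bases. Whether whole cells or nuclei were loaded is not given in the sources used here. Of 32589 gene identifiers, 32445 matched GENCODE vM21, which gave the positions.

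Cells with at least 200 genes and at most 50% mitochondrial UMIs were kept. Scrublet marked no cell as a doublet, so the 8% of cells with the highest doublet scores were removed (808 in p53KO_TAC and 1283 in WT_TAC). Cells were clustered with scanpy 1.11.5 and leidenalg 0.10.2 on 3485 variable genes (2000 per library, with the 10 genes and the calcium lists left out), 30 components, 15 neighbours and resolution 1. A cluster was named from a marker list when at least 3 markers, found in at least 5% of its cells, were at least 2-fold above the other cells and the list's mean log2 difference was at least 0.5 (20 CPM added). Where several lists passed, the highest mean was taken, and a cluster stayed unnamed where another list had more markers among its 10 leading genes or a larger share of markers passing. These naming thresholds were set with the data seen, and the 10 genes and the gene lists were chosen with earlier results of these data known.

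UMIs were summed per library and class and scaled to CPM of nuclear-encoded UMIs. Log2 ratios carry 0.5 UMI added to each sum, with exact conditional binomial intervals at 95%. Poisson intervals are given for levels, and all intervals cover counting error only. Genes differing at least 2-fold, with at least 100 UMIs in 1 library, were counted as past the size rule. With 1 library per group no test between groups was made. For shares of cells, cells were thinned to 500 UMIs. The free RNA level of a gene in a class is its level in cardiomyocyte-like cells times the ratio of the summed level of 12 cardiomyocyte markers in that class to that in cardiomyocyte-like cells. Named genes are the 10, the 3 genes most like each by profile, the 3 genes with the most UMIs and the highest and lowest ratio of each calcium list, and other genes the text marks as chosen after their values were seen. Some genes that this rule picks are not reported here. Only the calculation of ratios and intervals was tested on simulated data, with counts drawn from Poisson distributions. Clustering, naming, doublet removal, thinning and the free RNA level were not simulated. Python 3.11.15, scipy 1.17.1, numpy 2.4.6 and pandas 2.3.3 were used, and 23 other settings were tried.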

Additional observations from a re-analysis of the deposited data

Results flagged for a closer look

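The log2 ratios of p53KO_TAC over WT_TAC that follow lie on opposite sides of 0 in 2 kinds of cell, with intervals for counting error that leave 0 out in both. With 1 library per group these differences were not tested. Cacna1c had -0.66 in cluster 7, rich in mitochondrial RNA, and 0.36 in the other cardiomyocyte-like clusters. Camk2d had -0.48 in cluster 7 and 0.26 in the others. Compared with cardiomyocyte-like cells, where Camk2d had 0.079, it had -0.36 in endocardial-like and -0.54 in mesothelial-like cells. Rcan1 had -0.66 in endocardial-like and 0.63 in cardiomyocyte-like cells. The endocardial-like values rest on clusters that the libraries filled unequally, as given above. Slc8a1 had -0.26 in pericyte-like, -0.58 in smooth muscle-like and 1.09 in cardiomyocyte-like cells. Median-of-ratios scaling moved the smaller classes, to -0.13 for Slc8a1 in smooth muscle-like cells, -0.50 for Slc8a1 in pericyte-like cells and -0.26 for Camk2d in mesothelial-like cells. The shift of all genes by this scaling was 0.45 in smooth muscle-like and 0.29 in mesothelial-like cells, larger than the distance of these intervals from 0.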

How the results depend on the processing

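Each result was recomputed under up to 23 other settings, and for the 10 genes in cardiomyocyte-like cells under 17. Over these 17 the log2 ratio kept its sign for Casq2 (0.59 to 1.56), Pln (-0.84 to -0.035), Sln (3.98 to 9.20) and Rcan1 (0.41 to 1.15). Results that changed sign are given here as log2 ratios, and the cause was not tested. With every cell weighted equally they were 0.026 for Atp2a2, -0.073 for Camk2d and -0.10 for Camk2d per Atp2a2 UMI. In cells of 500 to 1500 UMIs they were -0.19 for Camk2d and -0.19 for Camk2d per Atp2a2 UMI, and 4 of the 10 genes, Sln included at any UMI number, were at least 2-fold higher. Without cluster 7, rich in mitochondrial RNA, Casq2 per Ryr2 UMI had -0.13. In cluster 7 alone, the ratios were -0.66 for Cacna1c, -0.48 for Camk2d, -0.26 for Jph2, -0.29 for Jph2 per Ryr2 UMI and -0.35 for Camk2d per Atp2a2 UMI. Without cluster 5, Jph2 per Ryr2 UMI had -0.35. Without cluster 13 the ratios were -0.86 for Ryr2, 0.35 for Atp2a2, -1.36 for Cacna1c, -0.40 for Slc8a1, -1.15 for Camk2d, -0.75 for Slc8a1 per Atp2a2 UMI and -1.50 for Camk2d per Atp2a2 UMI, and 2 of the 10 genes, Cacna1c and Camk2d, were then at least 2-fold lower. The share of all genes at least 2-fold lower in that setting alone is not given here, so nothing is read from this count. The share of cells with an Slc8a1 UMI, thinned to 1000 UMIs, had -0.10. Of all genes, 2.08 to 12.9% were at least 2-fold higher and 8.54 to 21.9% at least 2-fold lower over the settings. Leaving out shared barcodes or clusters, values within clusters and within bins of mitochondrial share, and splits by depth or atrial genes within clusters were added after the data were seen. No paired analysis was possible because each group is 1 library and the groups share only the number 1. With 1 library per group the intervals hold counting error alone, and differences between hearts, between operations and between preparations cannot be told apart from genotype. Genes with few UMIs, such as Rcan1 and Sln in WT_TAC, are limited by depth.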

Other observations

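Of the 58 cardiomyocyte-like cells of p53KO_TAC that held a UMI of Myl7, Bmp10 or Sbk2, 46 lay in cluster 7, so they are set against the other 282 p53KO_TAC cells of that cluster. Pln, the pump inhibitor, had 1586 CPM in cells with such a UMI and 4159.8 CPM in cells without. Cacna1c, the L-type pore, had 367 CPM in cells with such a UMI and 684 CPM in cells without, and Slc8a1, the exchanger, had 1759.8 CPM in cells with such a UMI and 939 CPM in cells without. Casq2, the calcium buffer, had 1412 CPM in cells with such a UMI and 1169 CPM in cells without. Ryr2 was close, with 2408 CPM in cells with such a UMI and 2352 CPM in cells without, as was Atp2a2, with 5212 CPM in cells with such a UMI and 5511 CPM in cells without. These cells all come from 1 library, so the values are descriptions.

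Cluster 15, left unnamed, held 373 p53KO_TAC and 7 WT_TAC cells and was led by genes such as Adam8, Cd300lf, Fgr, Csf3r, Gpnmb and Arg1. In its p53KO_TAC cells Slc8a1 had 1635 CPM, which was 6.07 times what free cardiomyocyte RNA would give, and Camk2d had 731 CPM, which was 21.8 times that level. The WT_TAC cells of this cluster were too few for a comparison.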
